A study of Mus musculus with 28 samples.

Results

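The Wnt pathway genes described here are the Wnt ligands, the Frizzled receptors (Fzd), the secreted Frizzled-related proteins (Sfrp), the Dickkopf inhibitors (Dkk), the R-spondins (Rspo) with their receptors Lgr4, Lgr5 and Lgr6, and 6 listed genes (Axin2, Lef1, Tcf7, Notum, Nkd1 and Wif1). They were chosen by gene symbol, and 50 of the 29068 gene symbols in the table matched: 19 Wnt ligands, 10 Frizzled receptors, 4 Sfrp genes, 4 Dkk genes, 7 Rspo and Lgr genes and the 6 listed genes. Of these, 46 passed the filter on low counts and were tested, and the other 4 (Wnt1, Wnt7a, Wnt8b and Dkk4) had too few reads. RNA from skin over the course of wound healing was sequenced in 28 libraries, 4 on each of Day0, Day3, Day5, Day7, Day10, Day12 and Day14. All animals were C57BL/6J (MLKL+/+) mice, 8 weeks old and of both sexes. The study's methods describe a 6-mm punch wound through the back skin down to the fascia, and no other treatment. The whole wound site was taken, with scab and margins. Whether the Day0 skin had been wounded is not clear from the sources used here. The labels call the earliest group Day0 and the control, whereas the study's methods place the earliest collection on day 1 after wounding and its figure legends call day 1 the day of injury. The series text gives 5 repeats per time point, and 4 libraries per day were analysed here. Nothing in the labels states that the 4 libraries of a day came from separate mice. The p-values therefore measure the spread between libraries within days, pooled over all 28 libraries, which may be technical.

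Wnt ligands are secreted lipid-modified proteins that bind a Frizzled receptor together with a co-receptor of the low-density lipoprotein receptor family. In the canonical branch this stops the destruction complex, in which the Axin proteins are scaffolds, from degrading beta-catenin, and beta-catenin then joins the transcription factors Lef1 and Tcf7 at target genes. R-spondins bind Lgr receptors and keep Frizzled receptors on the cell surface, whereas Sfrp proteins, Wif1 and Notum act on the ligand outside the cell, and Dkk1, Dkk2 and Dkk4 block the co-receptor. Axin2, Lef1, Tcf7, Notum and Nkd1 are known as target genes of the pathway, so that their RNA is often read as a sign of signalling. In skin the pathway is known for starting hair follicle growth, and Lgr5 and Lgr6 mark stem cells of the follicle.

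The 4 Day0 libraries were not alike, and this bears on each comparison with Day0. Replicates 2 and 3 stood apart from replicates 1 and 4. The median absolute difference of log2 CPM over all tested genes was 0.105 between replicates 2 and 3, 0.188 between replicates 1 and 4, and 0.273 to 0.307 across these pairs, against 0.101 to 0.229 among libraries of any wound day. The summed CPM (counts scaled to the library total) of 7 dermal fibroblast markers was 17780, 41680, 40470 and 10270 in Day0 replicates 1 to 4. The pairs did not overlap in 28 of the 46 tested Wnt pathway genes, 12 of them higher in replicates 2 and 3. This share of 60.9% was close to the 62.8% of all tested genes whose pairs did not overlap. The pairs lay more than 1 log2 unit apart in 5 genes, Rspo2, Sfrp2, Rspo1, Wnt8a and Wnt3a (10.9%, against 9.22% of all genes). The biological coefficient of variation was 26.5% on Day0 and 5.77% to 10.8% on the wound days. The edgeR model pooled the spread over all 28 libraries, so p-values against Day0 rest partly on the smaller spread of the wound days. With only the 8 libraries of the 2 days compared, 13 of 162 fold changes of named genes lost an adjusted p under 0.05. The skin label was met by all 5 basal keratinocyte markers (2897 to 6585 summed CPM on Day0), and 5 skeletal muscle markers were also high on Day0 (16010 to 26890) and lower later (3472 to 9261). Libraries held between 36706513 and 40655764 counts.

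The promoter sequences below are shown for members whose levels the later results turn on: Lef1, Wif1, Wnt10b and Wnt11, which ended above Day0, Fzd7, which fell and returned, and Sfrp5, which stayed low. Each is the stretch before the most upstream start site among the promoter sequences at hand for the gene, on build GRCm38.p6. It is read 5′ to 3′ on the strand of the gene and ends where the gene by RefSeq or its first exon by GENCODE begins. For Wif1 the GENCODE exon begins before that start site, and for Wnt10b and Wnt11 the site lies inside the RefSeq gene. The last 44, 56 and 28 bases before the site are therefore not shown for Wif1, Wnt10b and Wnt11. Promoter sequences were at hand for 34 of the 50 genes, in 41 windows of 250 bases. The sequences were searched on both strands for 4 non-overlapping spellings of the core that Lef1 and Tcf7 are known to bind, namely CTTTGAT with its variant CTTTGAA, as well as CTTTGTT with its variant CTTTGTA, and a match is printed in capitals.
Lef1 (chr3:131110047-131110296, plus strand): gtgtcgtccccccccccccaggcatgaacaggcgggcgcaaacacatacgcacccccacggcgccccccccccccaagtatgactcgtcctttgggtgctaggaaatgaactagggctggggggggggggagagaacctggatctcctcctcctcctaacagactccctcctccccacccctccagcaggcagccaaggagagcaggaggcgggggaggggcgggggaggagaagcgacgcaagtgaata
Wif1 (chr10:121033754-121033959, plus strand): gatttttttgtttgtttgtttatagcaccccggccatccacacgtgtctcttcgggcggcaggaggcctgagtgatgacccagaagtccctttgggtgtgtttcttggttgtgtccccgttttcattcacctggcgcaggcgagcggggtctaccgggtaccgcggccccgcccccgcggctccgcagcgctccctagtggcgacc
Wnt10b (chr15:98778207-98778400, minus strand): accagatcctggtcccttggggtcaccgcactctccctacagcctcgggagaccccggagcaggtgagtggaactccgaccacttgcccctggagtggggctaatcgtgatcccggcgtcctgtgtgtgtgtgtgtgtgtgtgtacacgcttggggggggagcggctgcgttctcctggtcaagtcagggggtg
Wnt11 (chr7:98834862-98835083, plus strand): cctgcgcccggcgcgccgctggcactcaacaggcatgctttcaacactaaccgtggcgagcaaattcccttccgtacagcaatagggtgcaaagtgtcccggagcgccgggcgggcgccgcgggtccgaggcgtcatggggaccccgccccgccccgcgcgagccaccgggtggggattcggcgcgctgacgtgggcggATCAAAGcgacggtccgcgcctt
Fzd7 (chr1:59481897-59482146, plus strand): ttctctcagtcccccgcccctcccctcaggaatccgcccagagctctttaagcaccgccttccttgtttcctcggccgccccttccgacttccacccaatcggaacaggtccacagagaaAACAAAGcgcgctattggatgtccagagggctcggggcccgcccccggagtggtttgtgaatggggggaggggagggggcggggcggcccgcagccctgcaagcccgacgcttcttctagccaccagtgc
Sfrp5 (chr19:42202253-42202502, minus strand): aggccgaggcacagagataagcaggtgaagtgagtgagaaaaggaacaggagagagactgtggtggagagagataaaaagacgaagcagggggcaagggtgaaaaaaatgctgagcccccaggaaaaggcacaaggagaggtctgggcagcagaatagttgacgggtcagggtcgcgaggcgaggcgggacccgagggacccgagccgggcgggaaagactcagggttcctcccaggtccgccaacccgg
The Wnt11 stretch held CTTTGAT in reverse orientation, beginning 51 bases before the start site, a distance that includes the 28 bases not shown. The Fzd7 stretch held CTTTGTT in reverse orientation, beginning 130 bases before its start site. The other 4 printed stretches had none of the 4 spellings. Over all windows of these genes, 5 of 41 (12.2%) held a match, in Dkk1, Fzd7, Lef1 (at another of its 4 start sites), Wnt5b and Wnt11, against 14.8% of 32851 promoter windows of all genes. CTTTGAT alone was in 4.88% of the windows of these genes and in 3.21% of all windows. The printed stretches were rich in G and C, from 59.6% in Sfrp5 to 70.7% in Wnt11.

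On Day3 most of the pathway was low. Of the 46 tested genes, 40 were lower than on Day0 at an adjusted p under 0.05 and 0 were higher, whereas 34.8% of all 18107 tested genes were lower and 31.8% were higher. With the further limit of a log2 fold change past 1.5, which was used for calls throughout, 22 were lower and 0 higher, against 12.3% and 6.44% of all genes. The 22 became 6 with limma on log2(FPKM + 1), which shrinks the folds of low genes, and lay between 19 and 23 when any 1 library was left out. The median log2 fold change of the 46 genes was -1.43, and that of all tested genes was -0.0325. At an unadjusted p under 0.05 edgeR also found 0 higher, DESeq2 and limma on log2 FPKM found 0 at an adjusted p under 0.05, and limma voom with sample weights found 1. By edgeR with Day0 replicates 1 and 4 alone, Sfrp2 was higher at 1.26 (adjusted p = 3.5e-13). With replicates 2 and 3 alone, Fzd4 was higher at 0.294 (adjusted p = 0.0011). Neither passed the fold limit, and with the other pair they were lower, at -0.846 and -0.468. The lowest mean of 33 of the 46 genes, on the scale of TMM-normalized CPM, (71.7%) fell on Day3, against 25.1% of all tested genes. In bulk tissue fewer cells of a type and less RNA per cell cannot be told apart, and the values are shares of a changing whole: 4 neutrophil markers summed to 14.3 to 39.7 CPM on Day0 and 3943 to 4930 on Day3. The part of these cells in the result was not tested.

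The fall lessened from day to day and turned into a surplus for many of the genes. On Day5, 36 were lower and 2 higher at an adjusted p under 0.05 (30.6% and 29% of all genes), and 13 and 1 passed the fold limit (8.22% and 5.52%). The gene higher past the limit was Sfrp2, and Wnt16 was the other at the adjusted p alone. Sfrp2 dropped under the fold limit with upper quartile scaling, with voom, with Day0 replicates 2 and 3 alone (0.88) and without Day0 replicate 1 or 4. On Day7, 22 were lower and 11 higher (24.8% and 25.6%), with 3 and 3 past the fold limit (4.64% and 4.52%). The higher ones included Dkk1, at 0 counts on Day0. Against a floor of 3 counts it was at least 2.34-fold higher, a bound short of the limit. On Day10, 12 were lower and 17 higher (26.9% and 23.5%), with 1 and 3 past the limit (5.02% and 4.22%). The low gene was Sfrp5, and the high ones were Dkk1, Sfrp2 and Wif1. The lower genes became 3 without Day0 replicate 2 or with Day0 replicates 1 and 4 alone (Fzd9 at -1.66 and Wnt7b at -1.80 in the latter), and 2 without Day0 replicate 3 or any 1 Day10 replicate. With limma on log2(FPKM + 1) the lower genes became 2 on Day5 and 1 on Day7, and the higher genes 1 on Day7 and 1 on Day10. The medians were -1.10, -0.33 and 0.13 on Day5, Day7 and Day10.

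On the last days more of these genes were above Day0 than below. On Day12, 24 were higher and 11 lower at an adjusted p under 0.05, against 21.7% and 25.6% of all genes. Past the fold limit 5 were higher (Dkk1, Lef1, Lgr5, Wif1 and Wnt8a) and 2 lower (Fzd9 and Sfrp5), against 3.69% and 3.38%. On Day14, 24 were higher and 11 lower, against 28.2% and 34.5% of all genes. Past the limit 7 were higher (Dkk1, Fzd5, Lef1, Lgr5, Wif1, Wnt8a and Wnt10b) and 4 lower (Dkk2, Fzd9, Sfrp5 and Wnt2b), against 5.1% and 8.71%. The median log2 fold change was 0.36 on Day12 and 0.53 on Day14, and all tested genes had medians of -0.037 and -0.0563. With limma on log2(FPKM + 1) 2 were higher and 0 lower past the limit on Day12, and 3 and 1 on Day14, and with Day0 replicates 1 and 4 alone 8 were higher on Day12. Of the 40 genes low on Day3, 22 were above Day0 on Day14, 10 were still below it and 8 did not differ from it by the test. With 1 of the Day0 pairs alone, Dkk3, Rspo3, Sfrp1 and Wnt10a of the 22, and Rspo1 of the 10, no longer passed. Of the 8, Rspo2 was higher with replicates 1 and 4 alone (3.41, adjusted p = 5.3e-07 by edgeR). With replicates 2 and 3 alone Wnt2 was lower (-0.781, adjusted p = 0.00071) and Fzd3 higher (0.257, adjusted p = 0.0499). Of the calls past the fold limit, those lost with either pair of Day0 libraries alone were 5 of 22 on Day3 (Rspo1, Rspo3, Rspo4, Wif1 and Wnt3), 7 of 14 on Day5 (Fzd9, Nkd1, Rspo1, Rspo2, Sfrp2, Wnt7b and Wnt10b), 3 of 6 on Day7 (Rspo2, Sfrp2 and Wnt2b), 2 of 4 on Day10 (Sfrp2 and Wif1), 0 of 7 on Day12 and 3 of 11 on Day14 (Fzd5, Wnt2b and Wnt10b). The counts at the adjusted p include genes whose log2 fold change on Day14 was small, such as Dkk3 at 0.18 ± 0.07 (SE).

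**Figure D1:**
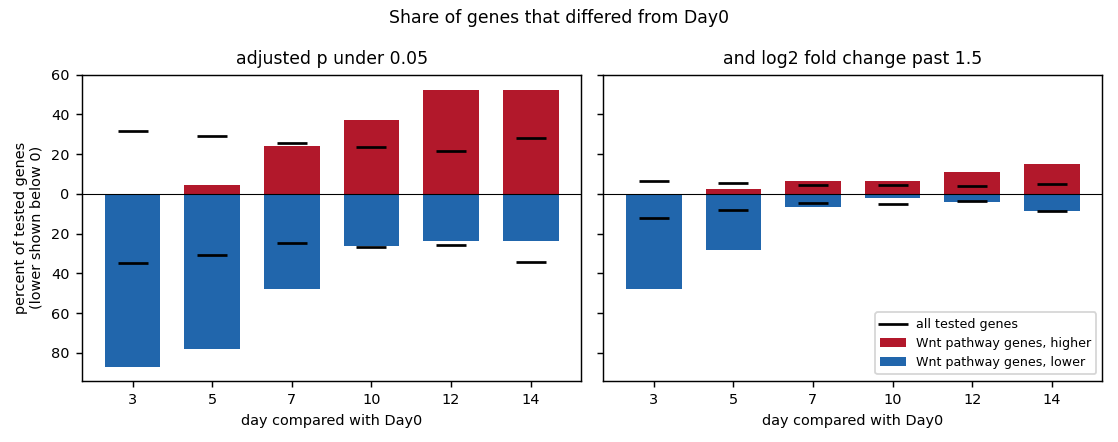
Percent of the 46 tested Wnt pathway genes (bars) and of all 18107 tested genes (black lines) that were higher (above 0) or lower (below 0) than on Day0, by day, at an adjusted p under 0.05 (left) and with a log2 fold change past 1.5 as well (right). The lower bars are longest on Day3 (40 genes on the left, 22 on the right), and the higher bars are longest on Day12 and Day14 (24 genes each on the left).

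**Figure D2:**
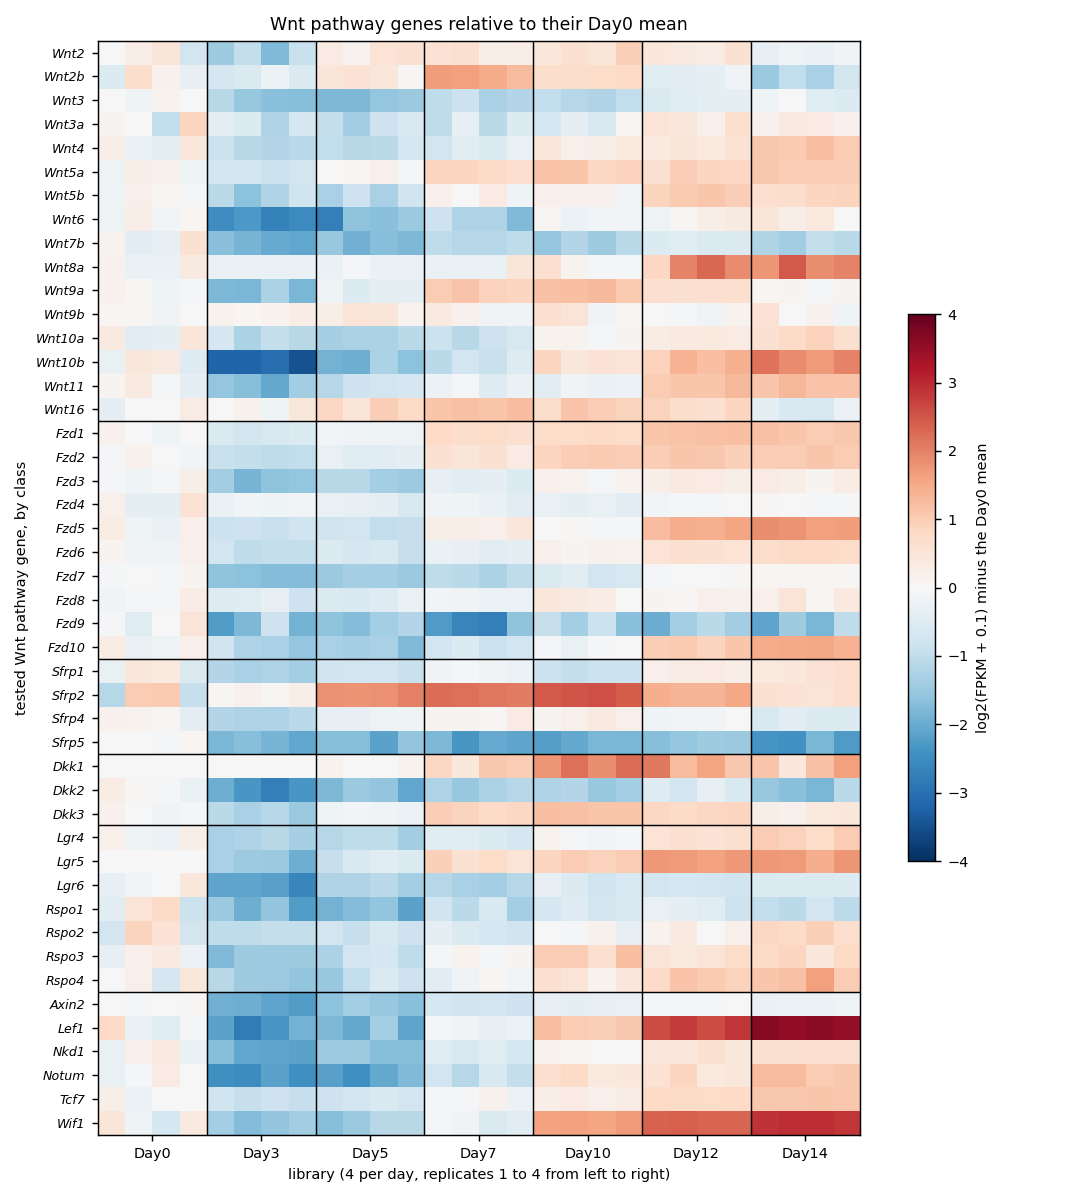
Log2(FPKM + 0.1) of each tested gene in each library minus its mean over the 4 Day0 libraries, with genes in rows by class and the 28 libraries in columns by day. Most rows turn blue on Day3 and Day5, and the rows of Lef1, Wif1, Wnt10b and Fzd5 turn red on Day12 and Day14, while Sfrp5 and Fzd9 stay blue.

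Among the targets and modulators, Axin2 (build GRCm38.p6, chr11:108917828-108950783), a scaffold of the destruction complex whose gene is a widely used read-out of canonical signalling, had 7.77, 7.55, 8.03 and 8.16 FPKM (fragments scaled to gene length and library total) in the 4 Day0 libraries. It had 2.02, 1.94, 1.75 and 1.59 FPKM on Day3 and 6.54, 6.7, 6.71 and 7.0 FPKM on Day14. The Day3 values lay far below Day0 and the Day14 values just below it, and neither group overlapped Day0. The log2 fold change by edgeR was -2.05 ± 0.07 (SE, adjusted p = 6.3e-20) on Day3, a 4.15-fold lower level, -0.79 ± 0.06 (SE, adjusted p = 2.6e-11) on Day7 and -0.35 ± 0.06 (SE, adjusted p = 1.7e-05) on Day14. Axin2 was highest on Day0 among the 7 days and on Day12 among the wound days, at 7.54 ± 0.155 FPKM (SD, n = 4). On Day12 it was -0.21 ± 0.06 (SE, adjusted p = 0.0072) against Day0, a call that was lost without composition normalization and with limma on log2 FPKM.

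Lef1 (chr3:131110297-131224357), the transcription factor through which beta-catenin acts in the hair follicle, had the widest range of the targets. It had 2.21, 0.996, 0.841 and 1.2 FPKM on Day0, 0.204, 0.0904, 0.163 and 0.26 on Day3 and 16.5, 15.6, 16.1 and 14.9 on Day14. Its lowest Day14 library stood above its highest Day0 library by several-fold, and its highest Day3 library was below its lowest Day0 library. By edgeR the log2 fold change was -2.81 ± 0.26 (SE, adjusted p = 2.6e-10) on Day3, 2.58 ± 0.20 (SE, adjusted p = 4.4e-11) on Day12 and 3.46 ± 0.21 (SE, adjusted p = 5.6e-14) on Day14, an 11-fold higher level. With Day0 replicates 1 and 4 alone the Day14 value was 3.15, and with replicates 2 and 3 alone it was 3.98. Exons of Lef1 share 13.7% of their bases with an antisense gene, and whether counting used the strand is not given in the sources used here. The same holds for 29.4% of the exon bases of Notum.

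Tcf7, the related factor named after T cells, moved the same way over a smaller range. It had 1.53, 1.07, 1.26 and 1.31 FPKM on Day0, 0.69, 0.632, 0.681 and 0.624 on Day3 and 2.85, 2.81, 2.91 and 2.81 on Day14, and no pair of these groups overlapped. Its log2 fold change was -0.92 ± 0.09 (SE, adjusted p = 1.1e-09) on Day3 and 1.01 ± 0.09 (SE, adjusted p = 1.2e-10) on Day14. The 4 T cell markers summed to 28.4 to 39.98 CPM on Day0, 22.3 to 27.6 on Day3 and 12.3 to 17.3 on Day14, and the part of these cells in the levels of Tcf7 was not tested.

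Wif1, a secreted protein that binds Wnt ligands, was the most abundant of the listed genes from Day10 on. It had 4.51, 2.85, 1.92 and 4.18 FPKM on Day0, 1.19, 0.881, 1.0 and 1.16 on Day3, 9.97, 10.3, 9.74 and 10.5 on Day10 and 24.5, 25.5, 25.4 and 23.6 on Day14. The Day3, Day10 and Day14 groups did not overlap, and Day10 and Day14 lay above all Day0 libraries. Against Day0 the log2 fold change was -1.61 ± 0.19 (SE, adjusted p = 1.9e-08) on Day3, 1.53 ± 0.17 (SE, adjusted p = 1.2e-08) on Day10 and 2.75 ± 0.17 (SE, adjusted p = 1e-13) on Day14, or 6.73-fold higher. With Day0 replicates 2 and 3 alone the Day3 value was -1.11, and with replicates 1 and 4 alone the Day10 value was 1.16, so that both calls past the limit rested on the Day0 pair. On Day7 it was -0.38 ± 0.17 (SE, adjusted p = 0.068), with the groups overlapping.

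Notum, an enzyme that removes the lipid from Wnt ligands, was scarce and fell the furthest of the listed genes. It had 0.625, 0.753, 1.0 and 0.797 FPKM on Day0, 0.0626, 0.0547, 0.101 and 0.0625 on Day3 and 2.02, 2.03, 1.67 and 1.75 on Day14. The groups did not overlap, and the log2 fold change was -3.42 ± 0.24 (SE, adjusted p = 9.1e-13) on Day3 and 1.11 ± 0.18 (SE, adjusted p = 5.3e-06) on Day14. Nkd1, which binds Dishevelled and dampens the signal, had 3.54, 5.04, 5.66 and 3.63 FPKM on Day0, 1.28, 0.952, 0.938 and 0.912 on Day3 and 6.79, 6.67, 7.01 and 6.93 on Day14. Its log2 fold change was -2.07 ± 0.12 (SE, adjusted p = 3e-14) on Day3 and 0.49 ± 0.11 (SE, adjusted p = 0.00047) on Day14. Its Day10 value by edgeR was -0.022 ± 0.11 (SE, adjusted p = 0.889). With Day0 replicates 2 and 3 alone that value was -0.277 (adjusted p = 0.0177), and with replicates 1 and 4 alone it was 0.293 (adjusted p = 0.0189). All 6 listed genes were lower on Day3 and on Day5, against 34.8% and 30.6% of all genes, and on Day14 5 were above Day0, against 28.2%, and Axin2 was below it.

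**Figure D3:**
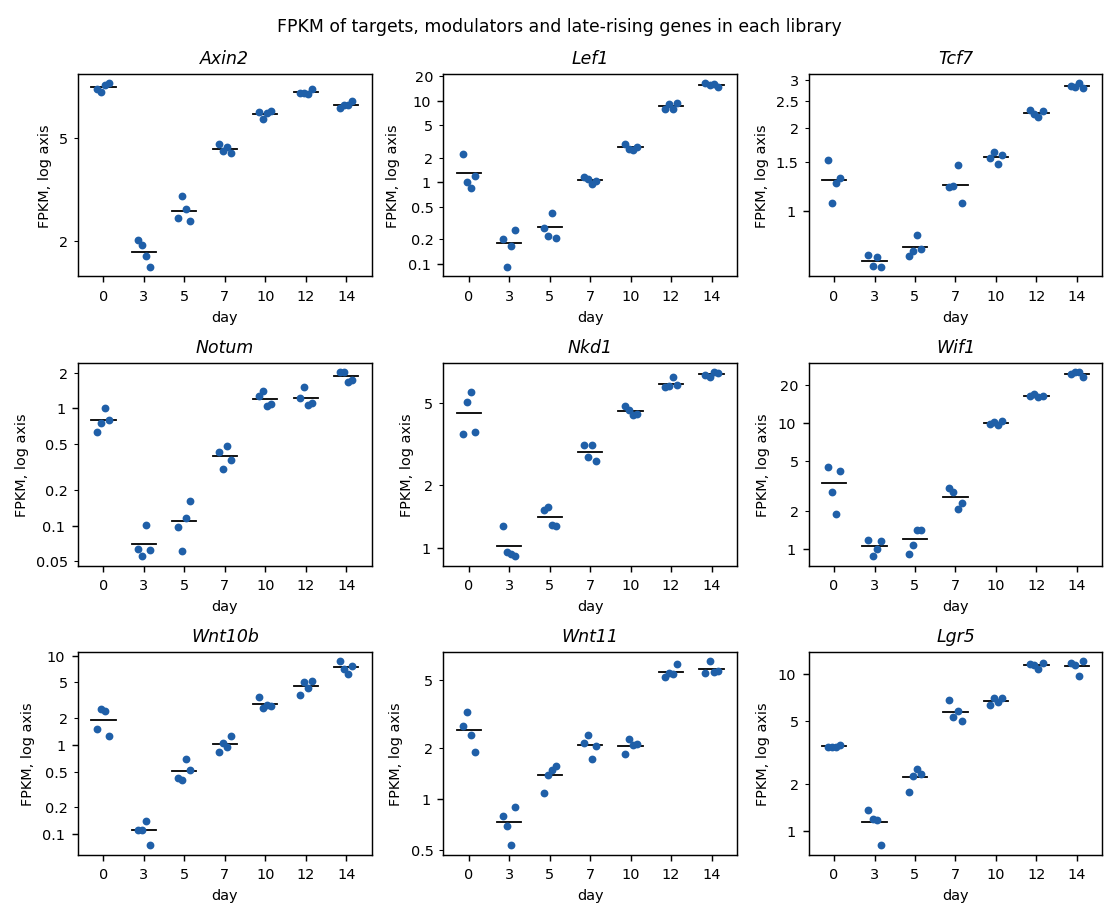
FPKM on a log axis by day for 9 genes, each point a library and each line the mean of 4. All 9 are lowest on Day3, and on Day14 all but Axin2 lie above their Day0 mean, Lef1 at 14.9 to 16.5 FPKM against 0.841 to 2.21.

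The follicle markers moved in the same period. The 10 hair matrix and inner root sheath markers, none at 0 on any day, summed to 258.5 to 2116 CPM on Day0, 8.19 to 14.1 on Day3, 15.3 to 22.1 on Day5, 1336 to 1819 on Day7, 303.4 to 351.2 on Day10, 4833 to 6276 on Day12 and 3811 to 4984 on Day14. The 6 bulge and germ markers summed to 1641 to 1895 CPM on Day0, 377.3 to 429.1 on Day3 and 1093 to 1229 on Day14. The 6 dermal papilla markers summed to 200.9 to 234 CPM on Day0, 146.7 to 164.1 on Day3 and 279.2 to 296.5 on Day14. The part of follicle cells in the levels of the Wnt pathway genes was not tested.

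The Wnt ligands together summed to 38.8 ± 3.62 FPKM (SD, n = 4) on Day0, 15.2 ± 1.25 on Day3, 33.9 ± 1.41 on Day7 and 59.6 ± 1.23 on Day14. Of the 16 tested ligands, 13 were lower on Day3 at an adjusted p under 0.05 (34.8% of all genes were) and 6 passed the fold limit (12.3% of all genes), namely Wnt3, Wnt6, Wnt7b, Wnt9a, Wnt10b and Wnt11. On Day14, 7 were higher and 4 lower at the adjusted p, against 28.2% and 34.5% of all genes. Past the limit Wnt8a and Wnt10b were higher and Wnt2b lower, against 5.1% and 8.71%. Wnt4, a ligand of epidermis and many epithelia, had the highest mean FPKM of the ligands on each of the 7 days, from 15.6% of the sum on Day7 to 26.8% on Day14.

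Wnt10b (chr15:98770712-98778206), a canonical ligand known for the start of hair growth, fell and rose the most of the ligands with a mean of at least 0.5 FPKM. It had 1.49, 2.54, 2.38 and 1.27 FPKM on Day0, 0.113, 0.113, 0.143 and 0.0752 on Day3 and 8.62, 7.07, 6.24 and 7.6 on Day14. All Day3 libraries were far below, and all Day14 libraries far above, the 4 Day0 libraries. Fitted by edgeR, the log2 fold change was -4.05 ± 0.25 (SE, adjusted p = 6.3e-14) on Day3, a 16.6-fold lower level, and 1.81 ± 0.18 (SE, adjusted p = 1.7e-09) on Day14. With Day0 replicates 2 and 3 alone the Day14 value was 1.46, just under the fold limit, and with replicates 1 and 4 alone it was 2.36. Its close relative Wnt10a had 5.39 ± 1.84 FPKM (SD, n = 4) on Day0, 2.54 ± 0.475 on Day3 and 8.66 ± 0.909 on Day14.

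Wnt6, an epidermal ligand, had 1.53, 2.16, 1.65 and 1.89 FPKM on Day0 and 0.237, 0.282, 0.191 and 0.225 on Day3. On Day14 it was back at 2.57, 2.16, 2.41 and 1.75, which overlapped Day0. The log2 fold change was -2.89 ± 0.26 (SE, adjusted p = 1.1e-10) on Day3, -1.37 ± 0.23 (SE, adjusted p = 1.2e-05) on Day7 and 0.17 ± 0.21 (SE, adjusted p = 0.493) on Day14. Wnt11, best known for signalling without beta-catenin, had 2.68, 3.24, 2.38 and 1.9 FPKM on Day0, 0.788, 0.694, 0.53 and 0.894 on Day3 and 5.55, 6.49, 5.62 and 5.66 on Day14. Its late values exceeded all of Day0, at 1.06 ± 0.14 (SE, adjusted p = 1.7e-07) on the log2 scale, and its Day3 values were below it, at -1.76 ± 0.15 (SE, adjusted p = 6.6e-11).

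Wnt7b and Wnt3, canonical ligands of the epidermis, were still lower than on Day0 on Day14 by the test. Wnt7b had 4.63, 3.09, 3.29 and 6.34 FPKM on Day0, 1.25, 1.07, 0.944 and 0.917 on Day3 and 1.77, 1.53, 2.09 and 1.92 on Day14. The Day14 libraries were above those of Day3 and below all of Day0, and the log2 fold change was -2.0 ± 0.17 (SE, adjusted p = 4e-11) on Day3 and -1.37 ± 0.16 (SE, adjusted p = 3.7e-08) on Day14. Wnt3 was -1.68 ± 0.14 (SE, adjusted p = 2.3e-11) on Day5 and -0.42 ± 0.13 (SE, adjusted p = 0.0058) on Day14, where its libraries overlapped Day0. Exons of Wnt7b share 6.61% of their bases with an antisense gene that is also in the table.

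Other ligands were highest in the middle of the course. Wnt9a, known from joint development, had 2.55, 2.31, 1.99 and 2.19 FPKM on Day0, 0.574, 0.566, 0.88 and 0.558 on Day3, 5.25, 5.34, 5.68 and 4.76 on Day10 and 2.37, 2.46, 2.11 and 2.41 on Day14. It was lowest on Day3, above all of Day0 on Day10 and within the range of Day0 on Day14. By edgeR the log2 fold change was -1.75 ± 0.12 (SE, adjusted p = 1.1e-12), 1.16 ± 0.11 (SE, adjusted p = 1.8e-09) and -0.081 ± 0.11 (SE, adjusted p = 0.556) on these days. Wnt2b had 0.466, 1.25, 0.841 and 0.557 FPKM on Day0, 2.52, 2.49, 2.24 and 1.88 on Day7 and 0.194, 0.318, 0.24 and 0.394 on Day14. It was above Day0 on Day7, at 1.55 ± 0.21 (SE, adjusted p = 7e-07), and below it on Day14, at -1.57 ± 0.24 (SE, adjusted p = 1.8e-06). The Day7 value was 1.13 with Day0 replicates 2 and 3 alone and the Day14 value -0.889 with replicates 1 and 4 alone, both under the fold limit.

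Wnt16, a ligand known from bone, had 0.969 ± 0.204 FPKM (SD, n = 4) on Day0, 1.06 ± 0.207 on Day3, 2.25 ± 0.0793 on Day7 and 0.671 ± 0.108 on Day14. It was 1.21 ± 0.16 (SE, adjusted p = 2.2e-07) on Day7 and -0.65 ± 0.16 (SE, adjusted p = 0.0011) on Day14, and no difference was detected on Day3, at 0.19 ± 0.16 (SE, adjusted p = 0.303). Wnt2 had 1.7 ± 0.604 FPKM on Day0, 0.639 ± 0.198 on Day3 and 2.56 ± 0.434 on Day10. Wnt5a, the best known ligand of the branch without beta-catenin, was -0.77 ± 0.09 (SE, adjusted p = 2.9e-08) on Day3 and 0.97 ± 0.09 (SE, adjusted p = 7.3e-10) on Day10, and remained above Day0 on Day14 at 0.91 ± 0.09 (SE, adjusted p = 1.1e-09). Its relative Wnt5b was 0.90 ± 0.15 (SE, adjusted p = 2.4e-05) on Day12.

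The remaining ligands were scarce. Wnt8a had 2, 0, 0 and 3 counts in the Day0 libraries, 0 in all 4 Day3 libraries, 7, 23, 30 and 21 on Day12 and 18, 33, 20 and 22 on Day14. Its summed counts give a ratio of 17.0 between Day14 and Day0 with a 95% interval from 7.04 to 53.7, which covers counting error only. Wnt9b, a ligand known from kidney and face, had between 1 and 19 counts in a library and did not pass the test on any day. Wnt3a ranged from 0.310 to 1.84 FPKM, and its Day0 libraries alone spanned 0.443 to 1.84. Wnt1, Wnt7a and Wnt8b, not tested, had at most 6, 13 and 1 counts in any library.

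The Frizzled receptors summed to 91.0 ± 13.4 FPKM (SD, n = 4) on Day0, 54.2 ± 0.553 on Day3 and 138 to 142 in the 4 libraries of Day14. Of 10 tested receptors, 9 were lower on Day3 at an adjusted p under 0.05 and 3 past the fold limit, Fzd3, Fzd7 and Fzd9, against 34.8% and 12.3% of all genes. On Day14, 5 were higher (Fzd1, Fzd2, Fzd5, Fzd6 and Fzd10), and Fzd9 was lower, against 28.2% and 34.5%. Fzd4, the receptor for the vascular ligand Norrin, was the exception on Day3, with 30.1, 19.8, 19.6 and 38.6 FPKM on Day0 and 21.6, 24.1, 22.8 and 23.9 on Day3, within the range of Day0. It had the highest mean of the receptors on Day0, Day3 and Day5, and Fzd1 had it from Day7 on.

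Fzd7, a canonical receptor of epithelial stem cells, had 16, 16.5, 16.1 and 17.7 FPKM on Day0, 5.33, 5.19, 4.9 and 4.95 on Day3 and 17.5, 17.3, 17.7 and 17.3 on Day14. It fell 3.13-fold without overlap, at a log2 fold change of -1.65 ± 0.06 (SE, adjusted p = 5.4e-19), and was -0.053 ± 0.06 (SE, adjusted p = 0.431) on Day14, with the groups overlapping. Fzd3, a receptor of planar polarity, had 1.19, 1.08, 1.2 and 1.47 FPKM on Day0, 0.403, 0.268, 0.337 and 0.358 on Day3 and 1.58, 1.49, 1.33 and 1.53 on Day14. Its log2 fold change was -1.80 ± 0.11 (SE, adjusted p = 7.1e-14) on Day3 and 0.14 ± 0.10 (SE, adjusted p = 0.260) on Day14.

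Fzd5 and Fzd10 rose above Day0 late. Fzd5 had 2.02, 1.39, 1.33 and 1.88 FPKM on Day0, 0.854, 0.868, 0.825 and 0.897 on Day3, 1.62, 1.68, 1.52 and 1.54 on Day10 and 6.19, 5.95, 5.29 and 5.45 on Day14. The Day10 libraries lay within Day0 and the Day14 libraries far above it, and the log2 fold change was -0.88 ± 0.11 (SE, adjusted p = 4.2e-08) on Day3 and 1.66 ± 0.10 (SE, adjusted p = 1.3e-13) on Day14. With Day0 replicates 1 and 4 alone the Day14 value, 1.5 after rounding, was just under the fold limit. Exons of Fzd5 share 17.8% of their bases with an antisense gene. Fzd10 had 6.93, 4.64, 4.87 and 6.57 FPKM on Day0, 2.26, 2.14, 2.26 and 1.61 on Day5 and 16, 16.3, 16.9 and 14.9 on Day14, and its log2 fold change was -1.44 ± 0.14 (SE, adjusted p = 9e-10) on Day5 and 1.35 ± 0.13 (SE, adjusted p = 9.5e-10) on Day14.

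Fzd9 stayed below Day0 on all 6 wound days. It had 1.14, 0.808, 1.19 and 1.74 FPKM on Day0, 0.168, 0.106, 0.0939 and 0.322 on Day7 and 0.195, 0.379, 0.263 and 0.531 on Day14, with no overlap. Against Day0 the log2 fold change ran from -2.82 ± 0.40 (SE, adjusted p = 1.2e-06) on Day7 to -1.42 ± 0.36 (SE, adjusted p = 0.0017) on Day10. The joint test detected no difference among the wound days.

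The 4 Sfrp genes, which encode secreted decoys with a Frizzled-like ligand-binding domain, each took a course of their own. Sfrp2, abundant in dermal fibroblasts, had 12.5, 56.1, 56.3 and 14.3 FPKM on Day0, 28.4, 30.9, 28.1 and 32.3 on Day3, 151, 156, 164 and 148 on Day10 and 42.2, 41, 39.3 and 44.2 on Day14. Day10 was above every Day0 library, and Day3 and Day14 lay between the low and high pairs of Day0. It made up 39.4% of the summed Sfrp FPKM on Day0 and 80.5% on Day10. Fitted by edgeR, the log2 fold change was 1.57 ± 0.28 (SE, adjusted p = 2.5e-05) on Day5, 2.10 ± 0.29 (SE, adjusted p = 6.3e-07) on Day10 and 0.13 ± 0.28 (SE, adjusted p = 0.695) on Day14. The Day10 value was 1.41 with Day0 replicates 2 and 3 alone and 3.47 with replicates 1 and 4 alone. The Day14 value was -0.553 (adjusted p = 1.3e-07) and 1.58 (adjusted p = 5.8e-15) with these pairs, so its direction rested on the Day0 pair. The summed fibroblast markers were highest in Day0 replicates 2 and 3, at 41680 and 40470 CPM, where Sfrp2 was far below its Day10 level. They were 33500 to 37410 CPM on Day10, 29170 to 33240 on Day12, where Sfrp2 had 74.3 ± 4.74 FPKM (SD, n = 4), and 11710 to 13420 on Day14. The 5 myofibroblast markers summed to 713 to 1171 CPM on Day0, 6477 to 6815 on Day10, 3417 to 3706 on Day12 and 2517 to 2864 on Day14. Their part in the result was not tested. Exons of Sfrp2 share 16.1% of their bases with an antisense gene.

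Sfrp5 (chr19:42197971-42202252) fell at once and did not recover. It had 9.95, 10.3, 9.79 and 10.6 FPKM on Day0, 2.8, 3.05, 2.75 and 2.31 on Day3, 3.03, 3.43, 3.7 and 3.54 on Day12 and 1.88, 1.81, 2.81 and 2.04 on Day14. All 24 wound-day libraries were below 4 FPKM and all Day0 libraries above 9 FPKM. The log2 fold change was -1.84 ± 0.14 (SE, adjusted p = 6.8e-12) on Day3 and -2.37 ± 0.15 (SE, adjusted p = 1.3e-13) on Day14, a 5.17-fold lower level. The 4 Day0 libraries were close to each other for this gene.

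Sfrp1 had 18.5, 30.9, 29.9 and 15.2 FPKM on Day0, 9.9, 9.09, 9.54 and 8.68 on Day3, 12.3, 11.5, 12.3 and 12.4 on Day10 and 29.4, 30.6, 33.4 and 35.8 on Day14. It was low on Day3, at -1.29 ± 0.13 (SE, adjusted p = 2.4e-09), and again on Day10, at -1.02 ± 0.13 (SE, adjusted p = 3.3e-07), with Day7 at 20.3 ± 0.944 and Day12 at 27.4 ± 1.07 FPKM (SD, n = 4) in between and after. On Day14 it was 0.32 ± 0.13 (SE, adjusted p = 0.033), but the value was -0.034 (adjusted p = 0.68) with Day0 replicates 2 and 3 alone and 0.89 with replicates 1 and 4 alone. Sfrp4 had 22.1, 21.6, 20.3 and 15.2 FPKM on Day0, 8.59, 8.28, 8.34 and 9.22 on Day3 and 12.4, 14.2, 13.4 and 13.3 on Day14. It was low on both, at -1.15 ± 0.09 (SE, adjusted p = 7.5e-12) and -0.70 ± 0.09 (SE, adjusted p = 9.8e-08), and no difference was detected on Day7 and Day10.

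**Figure D4:**
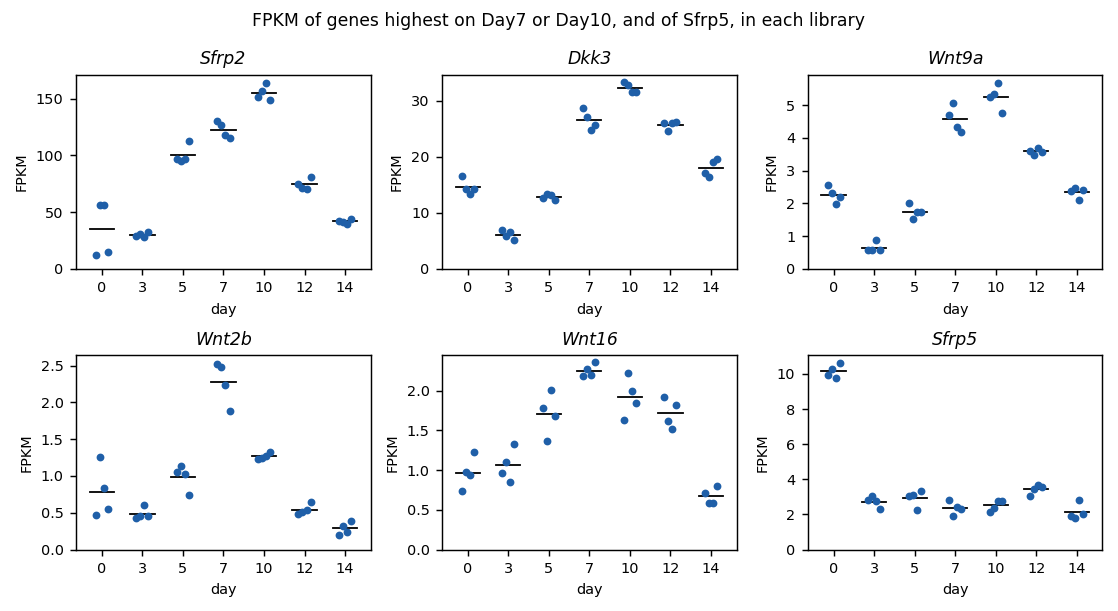
FPKM by day, on axes that start at 0, for 5 genes highest on Day7 or Day10 and for Sfrp5, each point a library and each line the mean of 4. Sfrp2 reaches 148.4 to 163.6 FPKM on Day10, its Day0 libraries fall into a low and a high pair, and Sfrp5 stays below 4 FPKM on all wound days.

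Of the Dickkopf genes, Dkk3, a divergent member that is not known to bind the co-receptor, was the most abundant on each day. It had 16.6, 14.3, 13.3 and 14.2 FPKM on Day0, 6.85, 5.89, 6.57 and 5.13 on Day3, 33.3, 32.9, 31.6 and 31.6 on Day10 and 17.2, 16.5, 19 and 19.6 on Day14. Day3 was below and Day10 above all of Day0, and Day14 overlapped it. By edgeR the log2 fold change was -1.20 ± 0.08 (SE, adjusted p = 1.1e-13) on Day3, 1.09 ± 0.07 (SE, adjusted p = 2.1e-12) on Day10 and 0.18 ± 0.07 (SE, adjusted p = 0.035) on Day14. The Day14 call was lost without Day14 replicate 3 (adjusted p = 0.13) or replicate 4 (adjusted p = 0.1), and with Day0 replicates 1 and 4 alone (adjusted p = 0.076).

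Dkk2, which binds the co-receptor, had 9.06, 7.58, 6.93 and 6.17 FPKM on Day0, 1.81, 1.38, 1.01 and 1.37 on Day3, 5.09, 4.34, 5.88 and 4.8 on Day12 and 2.53, 2.24, 2.02 and 3.44 on Day14. All wound-day libraries were below Day0, with a partial return on Day12. Against Day0 the log2 fold change was -2.36 ± 0.17 (SE, adjusted p = 8.4e-13) on Day3, -0.71 ± 0.15 (SE, adjusted p = 0.00042) on Day12 and -1.67 ± 0.16 (SE, adjusted p = 6.2e-10) on Day14. 

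Dkk1 and Dkk4, the strong inhibitors of canonical signalling, appeared late and at few counts. Dkk1 had 0 counts in all 8 libraries of Day0 and Day3, 7, 3, 10 and 9 counts on Day7, 21, 32, 23 and 33 on Day10 and 10, 3, 11 and 18 on Day14. A count of 0 allows up to 3 counts in a library, and against that floor Dkk1 was at least 8.64-fold higher on Day10 and at least 3.21-fold higher on Day14 than on Day0. Dkk4 had 1, 0, 0 and 0 counts on Day0, 0 in all libraries of Day5, Day7 and Day10, 6, 3, 6 and 3 on Day12 and 14, 11, 4 and 19 on Day14. It did not pass the filter, and its summed counts give a ratio of 43.9 between Day14 and Day0 with a 95% interval from 7.52 to 1770, for counting error only.

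All 7 Rspo and Lgr genes were lower on Day3 and on Day5, against 34.8% and 30.6% of all genes, and 6 passed the fold limit on Day3, against 12.3%. On Day14, 4 were higher (Lgr4, Lgr5, Rspo3 and Rspo4) and Lgr6 and Rspo1 were lower, against 28.2% and 34.5%. The call of Rspo3 was lost with Day0 replicates 2 and 3 alone, at 0.359 (adjusted p = 0.0537 by edgeR). Lgr5, a receptor that marks cycling follicle stem cells, had 3.44, 3.45, 3.44 and 3.51 FPKM on Day0, 1.36, 1.2, 1.18 and 0.811 on Day3, 6.84, 5.33, 5.84 and 5.05 on Day7 and 11.8, 11.4, 9.72 and 12.1 on Day14. The groups did not overlap, and Lgr5 was above Day0 from Day7 on. Fitted by edgeR, the log2 fold change was -1.55 ± 0.11 (SE, adjusted p = 2.1e-12) on Day3, 0.73 ± 0.10 (SE, adjusted p = 1.3e-06) on Day7 and 1.57 ± 0.11 (SE, adjusted p = 6e-13) on Day14.

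Lgr6, a marker of stem cells of the upper follicle and epidermis, had 5.64, 6.58, 6.97 and 9.62 FPKM on Day0, 1.56, 1.56, 1.5 and 1.07 on Day3 and 4.74, 4.76, 4.73 and 4.81 on Day14. Unlike Lgr5 it stayed below all Day0 libraries on Day14. The log2 fold change was -2.28 ± 0.12 (SE, adjusted p = 3.5e-15) on Day3 and -0.72 ± 0.12 (SE, adjusted p = 4.7e-06) on Day14. Lgr4, the broadly expressed receptor, had the highest mean FPKM of the class on each day. In Day0 replicates 2 and 3 Rspo1 was above it, at 11.9 and 13.9 FPKM against 8.12 and 7.9. Lgr4 had 9.4 ± 1.62 FPKM (SD, n = 4) on Day0, 3.89 ± 0.253 on Day3 and 17.8 ± 1.52 on Day14. Its log2 fold change was -1.22 ± 0.10 (SE, adjusted p = 9.4e-12) on Day3 and 0.79 ± 0.09 (SE, adjusted p = 2.7e-08) on Day14.

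Rspo3, an R-spondin of vessels and the dermal papilla, had 1.21, 1.76, 1.98 and 1.3 FPKM on Day0, 0.375, 0.513, 0.501 and 0.513 on Day3 and 3.17, 3.21, 2.51 and 3.62 on Day10. Day3 lay below and Day10 above Day0, at log2 fold changes of -1.65 ± 0.17 (SE, adjusted p = 1.7e-09) and 0.95 ± 0.15 (SE, adjusted p = 7e-06). With Day0 replicates 1 and 4 alone the Day3 value was -1.29, under the fold limit. Exons of Rspo3 share 13.1% of their bases with an antisense gene. Rspo4, known from nail formation, had 1.01, 1.16, 0.596 and 1.4 FPKM on Day0, 0.407, 0.31, 0.299 and 0.271 on Day3 and 2.27, 2.37, 3.31 and 2.11 on Day14. It was -1.63 ± 0.24 (SE, adjusted p = 1.1e-06) on Day3 and 1.15 ± 0.21 (SE, adjusted p = 3.1e-05) on Day14, and neither group overlapped Day0. Its Day3 value was -1.38 with Day0 replicates 2 and 3 alone, also under the limit.

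Rspo1 had 5.94, 11.9, 13.9 and 4.47 FPKM on Day0, 2.84, 2.04, 2.69 and 1.64 on Day3 and 4.07, 3.77, 4.75 and 3.9 on Day14. Day3 was below all of Day0, whereas Day14 overlapped the low pair of Day0. By edgeR the log2 fold change was -1.92 ± 0.25 (SE, adjusted p = 1.6e-07) on Day3 and -1.26 ± 0.24 (SE, adjusted p = 5.8e-05) on Day14. With Day0 replicates 1 and 4 alone it was -1.08 (adjusted p = 2.3e-05) on Day3, and on Day14 it was -0.39 (adjusted p = 0.088), so that the late call rested on replicates 2 and 3. Rspo2, which is known from follicle growth, had 9, 117, 82 and 9 counts on Day0, 0, 0, 2 and 2 on Day3 and 105, 99, 121 and 89 on Day14. Its summed counts give a ratio of 91.4 between Day14 and Day3 with a 95% interval from 35.4 to 337, for counting error only.

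Day14 was also set against Day3, which leaves the Day0 means out, although the spread was still pooled over all 28 libraries. With the 24 libraries of the wound days alone, all 25 fold changes of named genes at an adjusted p under 0.05 kept it. Of the 46 genes, 39 were higher and 3 lower on Day14 at an adjusted p under 0.05, against 34.2% and 32.8% of all tested genes. Past the fold limit 30 were higher and 0 lower, against 8.92% and 9.48%, and the 3 lower genes were Sfrp5, Wnt2b and Wnt16. The 30 became 15 with limma on log2(FPKM + 1). At an unadjusted p under 0.05 edgeR likewise gave 3 lower without the fold limit, DESeq2 gave 3, and each gave 0 with it. The median log2 fold change was 1.68 (1.65 with genes at 0 on Day3 set at their bounds), against 0.0359 for all genes. The largest values among genes not at 0 on Day3 or at few counts were Lef1 at 6.27 ± 0.26 (SE, adjusted p = 3.8e-18), Wnt10b at 5.86 ± 0.25 (SE, adjusted p = 9.7e-18), Notum at 4.53 ± 0.24 (SE, adjusted p = 9.1e-16) and Wif1 at 4.36 ± 0.19 (SE, adjusted p = 1.4e-17).

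A joint edgeR test of the 6 wound days found differences in 43 of the 46 genes, all but Fzd4, Fzd9 and Wnt9b, against 85.1% of all tested genes. On the scale of TMM-normalized CPM the mean was highest on Day14 in 18 genes (39.1%, against 23.1% of all genes) and on Day10 in 10 (21.7%, against 10.2%). It was highest on Day0 in 10 (21.7%, against 22.7%), namely Axin2, Dkk2, Fzd4, Fzd7, Fzd9, Lgr6, Rspo1, Sfrp5, Wnt3 and Wnt7b. On the FPKM scale the means of Fzd7, Fzd2, Fzd8 and Wnt5a were highest on Day14 instead. On Day3 0 were highest, where 22.1% of all genes were.

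**Figure D5:**
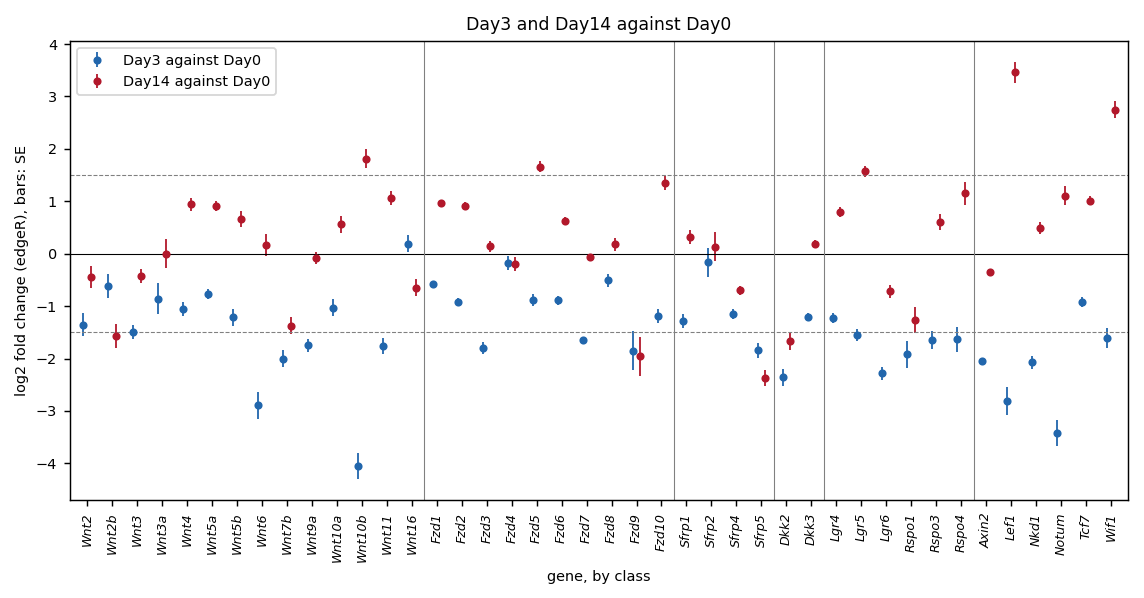
Log2 fold change against Day0 by edgeR, with SE as bars, for 42 tested genes by class on Day3 (blue) and Day14 (red); dashed lines mark 1.5, and Dkk1, Wnt8a, Rspo2 and Wnt9b are left out for their few counts. Blue points lie below 0 for all shown genes but Wnt16, and red points run from -2.37 in Sfrp5 to 3.46 in Lef1.

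For comparison, 50 other genes of the pathway were taken from a list of intracellular parts, co-receptors, inhibitors and targets. All 50 were tested, and on Day3 32 were lower and 6 higher at an adjusted p under 0.05 (34.8% and 31.8% of all genes), with 9 and 1 past the fold limit (12.3% and 6.44%) and a median log2 fold change of -0.467. On Day14, 29 were higher and 5 lower (28.2% and 34.5% of all genes), with 3 and 1 past the limit (5.1% and 8.71%) and a median of 0.361. Whether these genes differed from the Wnt pathway genes above was not tested. The 19 intracellular and membrane components had a median of -0.0634 on Day3 and none passed the limit on any day against Day0. The 13 other inhibitors had a median of -1.61 on Day3, and 8 of them were lower past the limit.

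Among those inhibitors, Frzb, another Frizzled-like decoy, had 1.79 ± 0.226 FPKM (SD, n = 4) on Day0 and 0.141 ± 0.0414 on Day3, a log2 fold change of -3.61 ± 0.23 (SE, adjusted p = 1.6e-13). Sostdc1, an antagonist of Wnt and BMP signals, was -2.82 ± 0.11 on Day3 (SE, adjusted p = 4.6e-18). Kremen2, a Dickkopf receptor, Apcdd1, a surface inhibitor, Nkd2, a relative of Nkd1, and Rnf43, the ubiquitin ligase on which R-spondins act, were -2.22 ± 0.29, -1.61 ± 0.07, -1.67 ± 0.12 and -1.85 ± 0.14 (SE) on Day3, each past the limit. Tnfrsf19, a target gene, was -2.09 ± 0.09 and Dkkl1, a Dickkopf-like gene, -1.57 ± 0.11 on that day, and Dkkl1 was also low on Day14, at -2.37 ± 0.11 (SE, adjusted p = 9.5e-16).

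Draxin was the single gene of the list higher past the limit on Day3. This inhibitor, known from axon guidance, had 0.138 ± 0.0468 FPKM (SD, n = 4) on Day0, 3.28 ± 0.412 on Day3 and 0.46 ± 0.0532 on Day14, and was higher past the limit on each wound day, from 4.62 ± 0.19 (SE, adjusted p = 8.1e-18) on Day3 to 1.61 ± 0.20 (SE, adjusted p = 6.1e-08) on Day14. Sost, Ror2 and Bambi were lower on Day3 at an adjusted p under 0.05 and higher later. Sost, the bone inhibitor sclerostin, had 0 to 9 counts on Day0, 0 to 1 on Day3 and 50 to 82 on Day10. Ror2, a receptor for Wnt5a, was 1.64 ± 0.09 on Day10 and 1.71 ± 0.09 on Day14 (SE, adjusted p = 4.1e-15), in the days when Wnt5a was above Day0. Bambi, a target that encodes a decoy receptor of the TGF-beta family, was 2.07 ± 0.13 on Day12 and 2.47 ± 0.13 on Day14 (SE, adjusted p = 5.7e-15). Against Day3, 14 of the 50 were higher past the limit on Day14 and 1, Draxin, lower, against 8.92% and 9.48% of all genes. They included Vangl2, Celsr1 and Ptk7 of the planar polarity branch, at 2.63 ± 0.11, 2.23 ± 0.18 and 1.65 ± 0.12 (SE), and the cell cycle gene Ccnd1 at 1.72 ± 0.08 (SE), none of which passed the limit against Day0.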

How the data were processed

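TRIzol was used for extraction and a VAHTS V6 kit for library preparation. The authors deposited raw read counts and FPKM per gene for each of 28 libraries, and FPKM equalled the count divided by gene length and library total. The submitters' processing notes name fastp, R 3.2.0 and mm10. The aligner, counter, annotation and strand setting are not given in the sources used here. Library totals ran from 36706513 to 40655764 counts (median 39499595), and 347 genes were at 0 in all libraries.

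The Wnt pathway genes and all gene lists were chosen with earlier results of these data known. Counts were tested with edgeR 4.0.16 in R 4.3.3 (TMM normalization, filterByExpr, glmQLFit and glmQLFTest) in 1 model of all 28 libraries, and p-values were adjusted over all 18107 tested genes by Benjamini-Hochberg. A call needed an absolute log2 fold change over 1.5, as in the study's criteria, and an adjusted p under 0.05. Named genes were the 6 listed genes and up to 5 per class with the largest absolute log2 fold change on any day at an adjusted p under 0.05 and a mean of at least 0.5 FPKM on the higher day. Wnt3, Wnt2b, Wnt16, Wnt2, Wnt4, Wnt5a, Wnt5b, Wnt10a, Wnt3a, Fzd4, Lgr4 and the genes of few counts were added after their values were seen. Other pathway genes past 1.5 against Day0 were named, and Vangl2, Celsr1, Ptk7 and Ccnd1 (past it for Day14 against Day3) were added after their values were seen. Differences of log2 CPM, marker sums and bounds (3 counts for a count of 0) were computed from the counts, and the intervals of count ratios cover counting error only. With 4 libraries per group an exact permutation test cannot go below p = 0.0286. The fits were tested on simulated data.

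Alternatives were DESeq2 1.42.0, limma 3.58.1 on log2(FPKM + 1) and log2(FPKM + 0.1), voom, other normalizations and filters, a fold limit of 1, a replicate block and leaving out each library. The edgeR fit was also run on only the 8 libraries of the 2 days compared, and on the 24 libraries of the wound days. Fits with Day0 replicates 2 and 3 only, or 1 and 4 only, were chosen after seeing the data. Of 84 pairs of same-numbered libraries on different days, 1 had a correlation of deviations from the day means over 0.1 (from -0.0762 to 0.178, median -0.000911), so the numbers were not taken as pairs.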

Additional observations from a re-analysis of the deposited data

Results flagged for a closer look

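Of 189 groups of 4 libraries examined for the named genes, 9 had a library far from the other 3, and chance flags about 1 in 20 groups. The values are log2 CPM. On Day3, Nkd1 was 2.60 in replicate 1 and 2.15 to 2.19 in the others, Wnt9a was 1.70 in replicate 3 and 1.06 to 1.07 in the others, and Lgr6 was 2.99 in replicate 4 and 3.47 to 3.52 in the others. Rspo3 was -0.01 in Day3 replicate 1 and 0.42 to 0.46 in the others. On Day5, Wnt6 was -1.01 in replicate 1 and 0.31 to 0.52 in the others, while replicate 4 stood apart for Sfrp2, at 7.90 against 7.64 to 7.68, and for Sfrp1, at 5.86 against 5.95 to 5.96. Nkd1 was 4.78 in Day12 replicate 3 and 4.64 to 4.66 in the others. Rspo3 was 2.33 in Day14 replicate 3 and 2.61 to 2.67 in the others.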

How the results depend on the processing

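For named genes, 162 fold changes had an adjusted p under 0.05, and the fold limit was not part of this check. Of these, 140 kept their direction and an adjusted p under 0.05 under every alternative run. That was lost by 16 when 1 library was left out and by 19 with a pair of Day0 libraries. Of 3364 recomputed values 3255 kept direction and an adjusted p under 0.05, and 107 kept only the direction. The direction reversed in 2, Sfrp1 on Day14 (-0.034 with Day0 replicates 2 and 3) and Rspo1 on Day12 (0.030 with replicates 1 and 4). The counts past the fold limit moved as follows, and the cause was not tested.

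With limma on log2(FPKM + 1), which shrinks the folds of low genes, the lower genes went from 22 to 6 on Day3, 13 to 2 on Day5, 3 to 1 on Day7, 2 to 0 on Day12 and 4 to 1 on Day14, and the higher genes from 3 to 1 on Day7, 3 to 1 on Day10, 5 to 2 on Day12, 7 to 3 on Day14 and 30 to 15 for Day14 against Day3. With log2(FPKM + 0.1) the lower genes on Day12 were 1. With a minimum of 10 counts 1 was lower on Day7 and on Day12 and 3 were higher on Day12. A fold limit of 1 gave 23 lower on Day5, 11 on Day7 and 6 on Day10, and 5, 5, 8 and 12 higher on Day7, Day10, Day12 and Day14. The single higher gene on Day5 became 0 with upper quartile scaling, voom or Day0 replicates 2 and 3, and 2 with the replicate block, which changed no other call. On Day7 1 was higher with voom or Day0 replicates 2 and 3. With Day0 replicates 1 and 4, 3 were lower on Day10 and 8 higher on Day12.

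Leaving out each library gave 43 to 45 genes in the joint test. The filter on low counts was applied anew in each of these fits, so the genes tested could differ from the 46 of the main fit. Higher genes were 0 to 0 on Day3, 0 to 2 on Day5 (0 without Day0 replicate 1 or 4, 2 without Day5 replicate 4), 2 to 3 on Day7, 2 to 4 on Day10, 6 to 6 on Day12, 7 to 9 on Day14 and 29 to 31 for Day14 against Day3. Lower genes were 19 to 23, 12 to 15, 2 to 4, 1 to 3, 2 to 2, 3 to 4 and 0 to 0. On Day10 they were 3 without Day0 replicate 2, and 2 without Day0 replicate 3 or any Day10 replicate.

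Without composition normalization the median of all genes shifted by 0.144 on Day12, 0.127 on Day14 and 0.183 for Day14 against Day3 (0.138 with upper quartile scaling). The share of higher among all calls then went from 45.8% to 67.4%, from 45.0% to 56.2% and from 51.0% to 64.1% (61.2%). The 4 genes that failed the filter, and Dkk1, Wnt8a, Wnt9b and Rspo2 on low days, had few counts. Whether greater depth would change their results was not tested.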
